A study of Mus musculus with 18 samples.

Results

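The genes described here were 10 members of the Notch pathway: the ligand genes Jag1, Jag2 and Dll1, the receptor genes Notch1, Notch2, Notch3 and Notch4, and the Hes and Hey family genes Hes1, Hey1 and Heyl. They were given as a fixed list and made up 10 of the 31053 genes counted in every library. RNA was counted in single cells of 17 mouse mammary epithelial libraries and 1 library of embryonic skin, with droplet capture of the 3′ ends of transcripts. C57BL/6 mice gave the E18.5 mammary rudiment and skin (from Lgr5-GFP+ embryos), the gland at postnatal day 5 and before puberty (2.5 weeks), TEBs (terminal end buds) and ducts dissected at 5 weeks from Ecadherin-GFP females, and the adult virgin gland at 10 weeks. SWISS mice gave 1 adult virgin library at 10 weeks. FVB/NJ mice gave 3 adult virgin libraries at 10 weeks (A10, P7 and D12), 2 at pregnancy day 12.5 (H and G), 2 at pregnancy day 18.5 (F4 and B4), 2 from lactation (F11 and D6, day 10 in the labels) and 1 after involution (3 weeks). Per the study's methods each library pooled animals and the cells were sorted for CD24 after removal of CD31+, CD45+ and TER119+ cells, and the study gives the adult mice of its strain comparison as not staged for estrus. Only the 4 FVB/NJ stages from adult to lactation had replicate libraries, and nothing in the labels says how far apart in time or handling those replicates were made, so p-values measure the spread between these libraries.

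Notch receptors are cut after binding a Jagged or Delta-like ligand on a neighbouring cell. The freed intracellular part enters the nucleus, joins the DNA-binding protein RBPJ and switches on target genes, of which the Hes and Hey repressors are the best known. In the mammary gland the outer layer is made of basal (myoepithelial) cells. The inner layer holds luminal progenitor (LP) cells, which give rise to the milk-producing alveolar cells, and mature luminal (ML) cells, which carry hormone receptors. Notch signalling is known for its part in the choice between basal and luminal fate.

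Gene positions were taken from GENCODE on GRCm38. Jag1 lies on chromosome 2 (minus strand, 137081456 to 137116644), Jag2 on chromosome 12 (minus strand, 112907819 to 112929776) and Dll1 on chromosome 17 (minus strand, 15367354 to 15376872). Notch1 lies on chromosome 2 (minus strand, 26457903 to 26516663), Notch2 on chromosome 3 (plus strand, 98013527 to 98150361), Notch3 on chromosome 17 (minus strand, 32120820 to 32166852) and Notch4 on chromosome 17 (plus strand, 34564268 to 34588503). Hes1 lies on chromosome 16 (plus strand, 30064384 to 30067796), Hey1 on chromosome 3 (minus strand, 8663359 to 8667256) and Heyl on chromosome 4 (plus strand, 123233556 to 123249875). RefSeq start sites on GRCm38.p6 were matched for 7 of the 10 genes (not for Hes1, Hey1 or Heyl), which gave 8 windows of the 250 bases before a start. The window for Jag1 reached 137116770, and its 126 bases outside the annotated gene are shown because Jag1 and Dll1 were basal ligand genes whose windows held the Hes/Hey class C motif. The upstream Dll1 window is shown for the same reason. Both are read 5′ to 3′ on the minus strand with the motif (CACGCG or its reverse CGCGTG) in capitals.
Jag1, chr2:137116645-137116770: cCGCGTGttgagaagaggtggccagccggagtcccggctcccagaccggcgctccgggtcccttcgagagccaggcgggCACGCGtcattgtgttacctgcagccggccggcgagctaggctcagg
Dll1, chr17:15376933-15377182: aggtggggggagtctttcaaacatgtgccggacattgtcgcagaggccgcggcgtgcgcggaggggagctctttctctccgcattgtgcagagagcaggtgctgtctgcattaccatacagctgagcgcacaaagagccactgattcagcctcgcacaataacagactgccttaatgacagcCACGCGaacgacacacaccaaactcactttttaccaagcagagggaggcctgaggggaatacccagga
The motif occurred 2 times in the Jag1 window, 1 time in the Notch2 window and 1 time in this Dll1 window, and 7.62% of all 32851 windows held it. The RBPJ core (TGGGAA or its reverse TTCCCA) was in none of the 8 windows, which cover ligand and receptor genes only, and in 21.6% of all windows. A match is a run of letters and not a shown binding site.

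Of 140187 mammary barcodes, 123574 were kept as cells, with a median of 2498 to 21609 UMIs (unique molecular identifiers, each counting 1 captured transcript) per cell and library. Cells were placed in a class by their markers (10 genes for each of basal, LP/alveolar and ML), and no Notch gene was a marker. The label of epithelium was checked against these markers. At E18.5 only 523 basal, 190 LP/alveolar and 28 ML cells passed, 44.1% of cells fell below the marker floor and 22.7% carried skin markers, so the E18.5 classes are small and the E18.5 levels printed are also, or only, over all 5609 non-stromal cells. Skin-marker cells were not removed from these, and the skin list was at 727 CPM there against 62.9 to 101 in the gated classes. At postnatal day 5 the share of skin-marker cells was also 22.7%, and 21.1% of cells were mixed between classes. Its levels are over 924 basal, 263 LP/alveolar and 408 ML cells. Library P7 stood apart: its barcodes had 14 bases, it was the shallowest library, and it held 2 or fewer Notch2 UMIs in each class. In lactation only 48.6% (F11) and 68.9% (D6) of barcodes were kept. Pairs of libraries shared at most 239 barcodes, and at most 2.41% of the smaller library. Clusters placed 75.2% to 100% of gated cells in the same class outside E18.5, but at E18.5 only 23 of the 523 basal cells and none of the others. A level is given in CPM, the UMIs of a gene scaled to 1000000 UMIs of the class in a library, leaving out 8 milk protein genes. CPM values are not scaled by gene length, so levels are compared between libraries and classes and not between genes. Intervals in parentheses after a level, a share or a pooled ratio are exact 95% Poisson or binomial intervals and cover counting error only. Intervals of log2 differences are approximate. Their SE was derived from the edgeR estimate and its F statistic, and a normal 95% interval was taken.

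Lineage differences were tested with the library as a block in the 5 adult libraries of 3 strains and in the 6 libraries of pregnancy and lactation. In the adult gland, 9 of the 10 members differed between LP/alveolar and basal cells in edgeR's quasi-likelihood test (adjusted p under 0.05), where 48.3% of all 13089 genes tested did. The 3 ligand genes were lower in LP/alveolar cells and 6 members were higher, with Notch4 not called. Between ML and basal cells 5 of 10 members were called, under the background of 61.9%, and between LP/alveolar and ML cells 5 of 10, against 45.4%. In pregnancy and lactation 8 members had enough counts to be tested, while Notch4 and Heyl did not. Of these, 7 differed between LP/alveolar and basal cells (background 63.7%), 6 between ML and basal cells (51.2%) and 4 between LP/alveolar and ML cells (47.7%). The median log2 difference of LP/alveolar minus basal was 1.23 over the 10 members in the adult and -1.29 over the 8 tested in pregnancy and lactation (0.01 and 0.05 over all genes), sets that hold members of both directions and differ by Notch4 and Heyl, so the medians are not set against each other. Hey1 was called in both sets with opposite signs, in pregnancy and lactation on 1 to 137 UMIs in basal and 4 to 25 in LP/alveolar cells of a library.

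**Figure D1:**
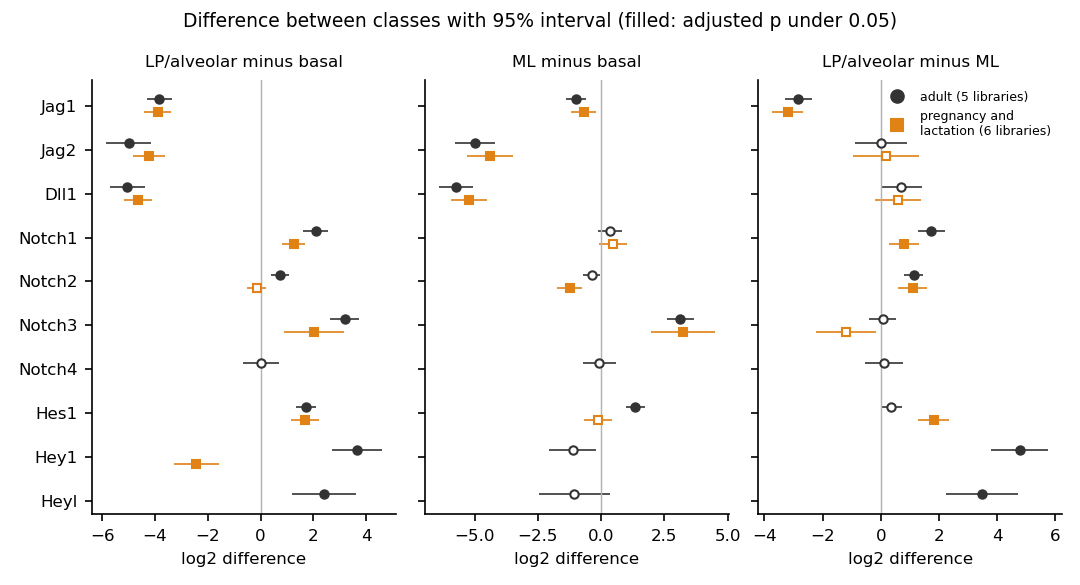
Log2 difference between classes for each Notch gene (horizontal axis, edgeR estimate with its 95% interval) in 5 adult libraries (circles) and 6 libraries of pregnancy and lactation (squares), filled where the adjusted p was under 0.05. Jag1, Jag2 and Dll1 sit left of 0 against basal cells in both sets, and Hey1 moves from 3.65 in the adult to -2.43 in pregnancy and lactation for LP/alveolar minus basal; the Hey1 estimates against ML cells in pregnancy and lactation are left out because ML cells held no Hey1 UMI there.

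Dll1 and Jag2 were highest in basal cells in all 16 mammary libraries after birth, and Jag1 was in 14, with ML cells higher in the TEB and in G. Dll1, a Delta-like ligand, was at 125 (A10), 386 (P7), 68.4 (D12), 147 (C57BL/6) and 53.8 (SWISS) CPM in adult basal cells. In LP/alveolar cells of the same libraries it was at 4.93, 8.14, 3.87, 3.42 and 0.806, so the classes did not overlap. The log2 difference of LP/alveolar minus basal was -5.04 ± 0.34 (SE, edgeR adjusted p = 2.66e-07), and that of ML minus basal was -5.74 ± 0.34 (adjusted p = 8.15e-08). LP/alveolar and ML cells were not called apart (0.69 ± 0.36, edgeR adjusted p = 0.136). In pregnancy and lactation the same 2 contrasts against basal cells were -4.63 ± 0.27 (edgeR adjusted p = 5.11e-10) and -5.22 ± 0.36 (adjusted p = 5.9e-09), and the change of each with stage was not called.

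Dll1 levels in basal cells also ranged widely between stages. They were 170 and 171 CPM at pregnancy day 12.5, 185 and 310 at day 18.5, and 135 and 237 in lactation. None of the 3 stage steps was called, with log2 differences of 0.01 (95% interval -1.11 to 1.12), 0.38 (-0.84 to 1.60) and -0.38 (-1.62 to 0.85). Among single libraries Dll1 was lowest in basal cells of the TEB at 11.9 (9.90 to 14.1) CPM and was 46.5 (42.5 to 50.7) in basal cells of the duct. At E18.5 it was 15.1 (11.7 to 19.2) in gated basal cells and 11.3 (10.4 to 12.3) over the non-stromal cells. It was 61.5 (56.7 to 66.6) at postnatal day 5, 129 (124 to 135) before puberty and 164 (156 to 172) post-involution. These libraries had no replicate, so the differences carry no test. Postnatal day 5 and pre-puberty also shared few or no barcodes with the E18.5, TEB, duct and post-involution libraries.

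Jag2, the other Jagged ligand, was at 44.2 (A10), 25.5 (P7), 35.9 (D12), 92.6 (C57BL/6) and 61.8 (SWISS) CPM in adult basal cells. No LP/alveolar sum of the 5 exceeded 3.32 and no ML sum exceeded 2.57. The contrasts were -5.00 ± 0.44 for LP/alveolar minus basal (edgeR adjusted p = 1.52e-06) and -4.99 ± 0.41 for ML minus basal (adjusted p = 5.8e-07). In the TEB, basal Jag2 was at 58.3 (53.8 to 63.0) CPM and in the duct at 79.0 (73.8 to 84.5). At E18.5 the gated basal level was 14.9 (11.6 to 18.9), and the level over the non-stromal cells was 7.19 (6.46 to 7.98).

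Jag1, the ligand whose loss in humans and mice disturbs bile duct and vessel development, had a different luminal pattern. Adult basal cells held 32.4 (A10), 8.13 (P7), 32.2 (D12), 54.0 (C57BL/6) and 51.7 (SWISS) CPM, and ML cells held 18.4, 2.16, 22.5, 22.3 and 23.9. LP/alveolar cells held 0.856 to 3.69. ML cells thus lay below basal cells (log2 difference -1.0 ± 0.20, edgeR adjusted p = 0.000745) and LP/alveolar cells lay below ML cells (-2.83 ± 0.24, adjusted p = 2.52e-06). Without P7 these values were -0.92 and -2.93 and stayed called. Without the library block ML minus basal was -0.95 and not called (edgeR adjusted p = 0.204).

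The same order of Jag1 levels was seen in 5 of the 6 libraries of pregnancy and lactation, while in G the ML level, 42.1 (30.4 to 56.9), was beside the basal one, 39.9 (37.7 to 42.2). Jag1 in LP/alveolar minus ML cells was -3.20 ± 0.27 (edgeR adjusted p = 9.44e-08), and ML minus basal was -0.69 ± 0.25 (adjusted p = 0.0289), the latter called in 7 of 13 alternatives and lost when F4, B4 or D6 was left out (edgeR adjusted p 0.0587 to 0.086). Basal Jag1 levels were 34.6 and 39.9 at day 12.5, 66.7 and 111 at day 18.5, and 150 and 131 in lactation, against 8.13 to 32.4 in the adult FVB/NJ libraries. Each later stage lay above the one before it without overlap, yet no step passed the test (log2 0.64, 1.09 and 0.73, edgeR adjusted p = 0.635, 0.648 and 0.735). A basal level of 104 (99.3 to 108) stood before puberty, and ML cells of the TEB held more Jag1, 18.8 (17.1 to 20.6), than their basal cells did, 10.8 (8.88 to 12.9). The pre-puberty library shared few or no barcodes with the TEB and FVB/NJ libraries.

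**Figure D2:**
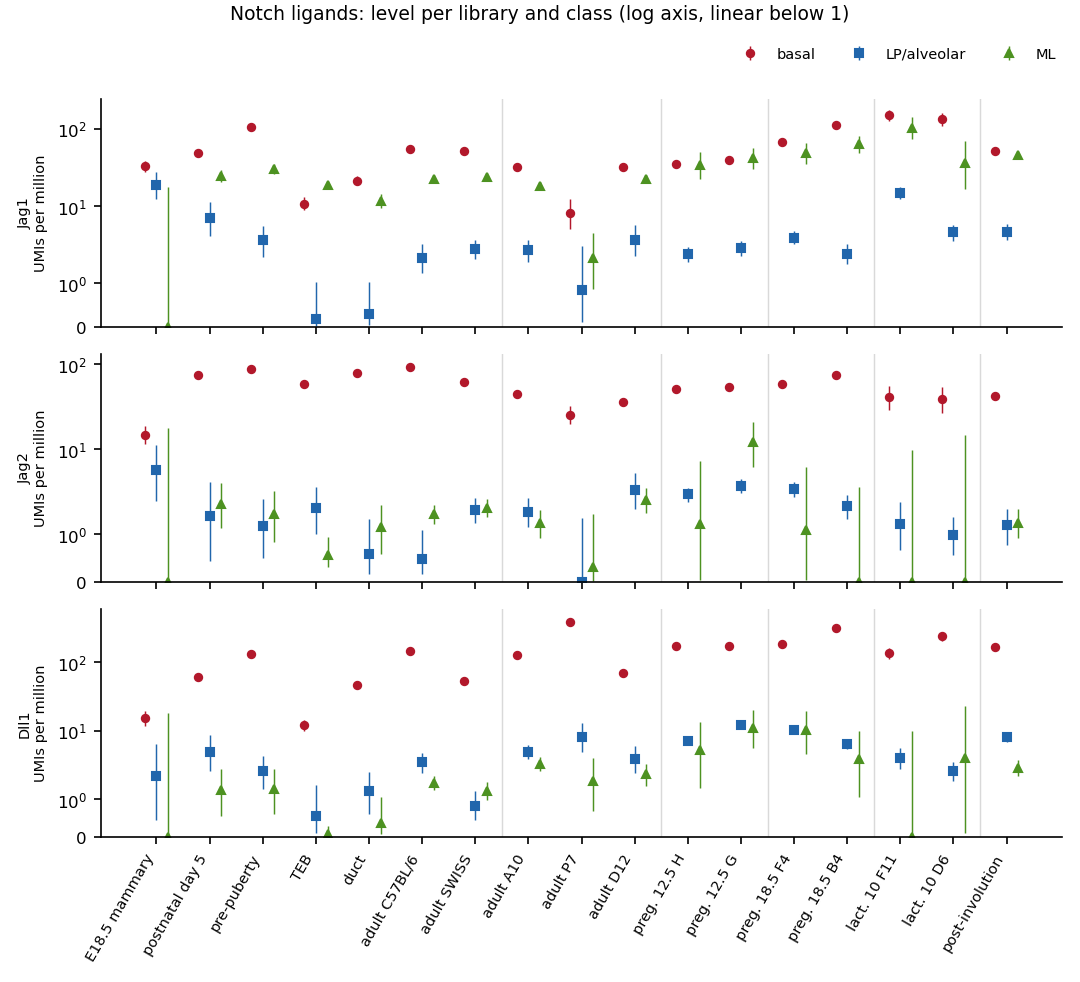
Level of Jag1, Jag2 and Dll1 (CPM outside the milk genes, log axis that is linear below 1) in basal, LP/alveolar and ML cells of each of the 17 mammary libraries, with 95% Poisson bars. Basal points lie on top for Jag2 and Dll1 in every library after birth, while ML points of Jag1 lie between the basal and LP/alveolar points in most.

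In the adult gland Notch1 had its highest level in LP/alveolar cells, Notch3 was higher in both luminal classes than in basal cells, and Notch2 was detected in every class. Notch1, the receptor most often tied to cell fate choice, was at 53.2 (A10), 41.1 (P7), 50.9 (D12), 160 (C57BL/6) and 68.8 (SWISS) CPM in adult LP/alveolar cells. Basal cells of these libraries held 15.2, 4.07, 10.2, 34.9 and 33.4, all below the LP/alveolar range. The difference was 2.09 ± 0.24 (edgeR adjusted p = 1.32e-05). LP/alveolar cells were also above ML cells, by 1.74 ± 0.23 (adjusted p = 7.43e-05), whereas ML and basal cells were not called apart (0.35 ± 0.23, adjusted p = 0.206).

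The LP/alveolar lead of Notch1 was smaller in pregnancy. Day 12.5 had 35.7 and 31.6 CPM in LP/alveolar cells, day 18.5 had 25.5 and 17.9, and lactation had 11 and 16.6. The groups followed in that order without overlap, but no single step was called in the LP/alveolar fit (log2 -0.43, -0.55 and -0.42, edgeR adjusted p = 0.403, 0.482 and 0.629). What did pass was the test of the class difference itself: LP/alveolar minus basal was 1.25 ± 0.23 in pregnancy and lactation, and pregnancy minus adult in that contrast was -0.89 ± 0.27 (edgeR adjusted p = 0.0356). This call was made in 7 of 13 alternatives and was lost without H, F4, P7 or D12 (log2 -0.67 to -0.92, adjusted p 0.0654 to 0.108). Among the epithelial class sums the highest Notch1 levels were in LP/alveolar cells of the youngest C57BL/6 glands after birth, 197 (179 to 215) at postnatal day 5 and 232 (219 to 245) before puberty. Both libraries, and adult C57BL/6 as well, are among those with few shared barcodes. None of these ages had a replicate library in this strain, so age and library cannot be told apart. In basal cells the level was 73.5 (68.3 to 79.0) at postnatal day 5 and 11.1 (9.23 to 13.3) in the duct, and over the non-stromal E18.5 cells it was 92.3 (89.6 to 95).

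Notch3 separated both luminal classes from basal cells. Adult LP/alveolar cells held 24.2 (A10), 18.8 (P7), 30.0 (D12), 48.7 (C57BL/6) and 30.6 (SWISS) CPM and ML cells held 32.9, 21.3, 29.8, 33.3 and 32.3. Basal cells held 1.60 to 5.54. The differences from basal cells were 3.18 ± 0.28 for LP/alveolar (edgeR adjusted p = 1.45e-06) and 3.12 ± 0.27 for ML (adjusted p = 9.52e-07), and the luminal classes were not called apart (0.06, 95% interval -0.40 to 0.52). In pregnancy ML cells were at 37.9 to 46.2, above all 5 adult ML levels, while LP/alveolar cells were at 12 to 16.3 and basal cells at 0.905 to 2.85. The ML minus basal difference was larger in pregnancy than in the adult by 1.51 ± 0.39 (edgeR adjusted p = 0.015), a call lost without H, G, P7 or D12 (log2 1.26 to 1.46, adjusted p 0.0505 to 0.0577) and with classes taken from clusters (1.04, adjusted p = 0.279). The change in LP/alveolar minus ML, -0.94 ± 0.34, was not called (edgeR adjusted p = 0.0587). Markers of mural cells, which also hold Notch3 (below), were higher in the same ML sums. The 6 mural markers stood at 26.1 (G) to 44.6 CPM (F4) in pregnancy, against 1.78 (D12) to 3.74 (A10) in adult FVB/NJ ML cells. Of these, Rgs5 was at 17.2 (H) to 42.4 (F4), against at most 1.28 (A10). Their part in the Notch3 difference was not tested.

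Basal cells in lactation stood apart for Notch3, with 16.4 (F11) and 35.1 (D6) CPM against 2.16 (F4) and 2.85 (B4) at day 18.5. The difference was 3.38 ± 0.50 (edgeR adjusted p = 0.00913). It rested on 16 and 31 UMIs in lactation. Notch3 is also a receptor of mural cells, the contractile cells of small vessels, in which it was at 206 to 503 CPM here. In these basal sums the 6 mural markers stood at 70.9 (F11) and 206 (D6) CPM in total, against 22.4 (F4) and 36.9 (B4), with all 6 detected in each. The defining mural gene Rgs5 was at 37.0 and 148 against 9.02 and 21.8. Without cells that carried a blood, vessel or immune marker the difference was 2.82 (edgeR adjusted p = 0.229), with classes from clusters it was 1.58 (adjusted p = 0.739), and it was not called without F4 (3.20, adjusted p = 0.205), B4 (3.52, 0.187) or D6 (2.86, 0.133). Post-involution basal cells also held Notch3 at 23.8 (20.9 to 27.0) CPM, with the mural list at 35.2.

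Notch2, a receptor also found in fibroblasts here, was detected in all 3 classes. Adult LP/alveolar cells held 13.7 (A10), 0.856 (P7), 25.6 (D12), 28.4 (C57BL/6) and 19.9 (SWISS) CPM and basal cells 8.55, 0.37, 18.8, 16.6 and 12.5, overlapping ranges in which each library still had the LP/alveolar value above the basal value. The blocked difference was 0.75 ± 0.17 (edgeR adjusted p = 0.00302) and was 0.73 without P7. Without the library block it was 0.715 and not called (edgeR adjusted p = 0.647). In pregnancy and lactation LP/alveolar and basal cells were not called apart (-0.15, 95% interval -0.50 to 0.20), while ML cells were below basal cells by 1.24 on the log2 scale (edgeR log2 difference -1.24 ± 0.26, adjusted p = 0.000705). The change of these contrasts with stage was not called. Pre-puberty held the highest Notch2 levels of the libraries after birth in LP/alveolar cells, 69.5 (62.7 to 76.8), and in basal cells, 40.2 (37.4 to 43.1), the latter beside 40.1 in F11. This library and adult C57BL/6 are both among those with few shared barcodes, and neither had a replicate, so age and library cannot be told apart.

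Notch4, mainly a receptor of blood vessels, was close to the detection limit in epithelium. It had 615 UMIs over all 51 epithelial sums, and the largest level in a sum with 10 or more Notch4 UMIs was 2.22 (1.15 to 3.88) CPM in TEB LP/alveolar cells. No adult class contrast was called for it, with intervals of -0.65 to 0.70, -0.72 to 0.57 and -0.56 to 0.77. In endothelial cells it was at 33.6 CPM in F11 (11 UMIs) and 36.7 in D6 (59 UMIs), and those of 3 other libraries held 1 to 3 UMIs each, at or below the limit of 3 counts.

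**Figure D3:**
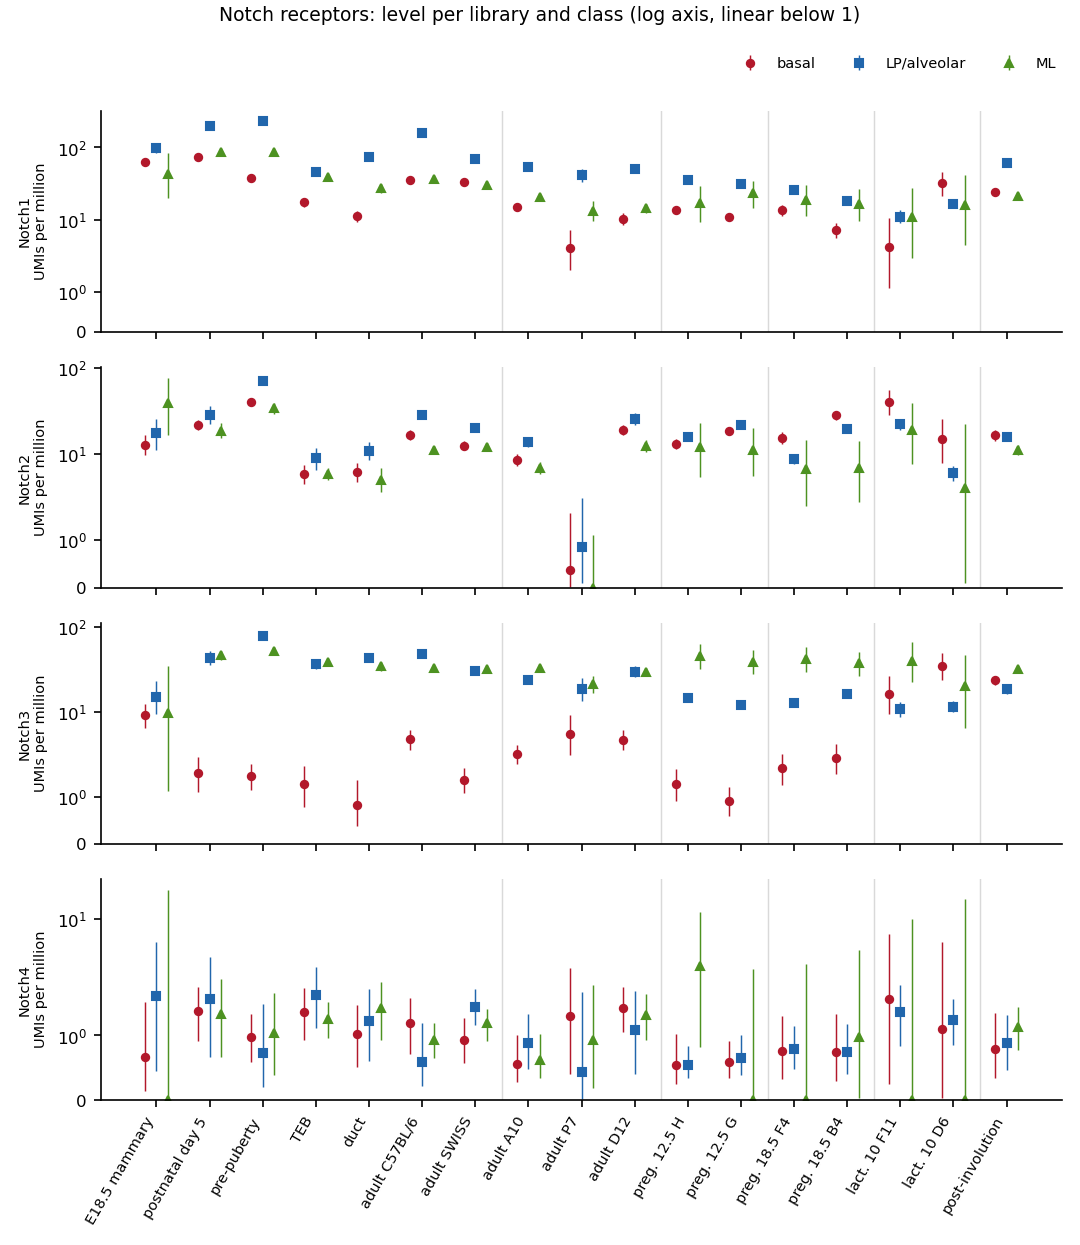
Level of the 4 receptor genes (CPM outside the milk genes, log axis that is linear below 1) in basal, LP/alveolar and ML cells of the 17 mammary libraries, with 95% Poisson bars. Notch1 is highest in LP/alveolar cells of 15 of the 16 libraries after birth, Notch3 lies low in basal cells except in lactation and post-involution, and Notch2 is near 0 in P7.

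Hey1, a basic helix-loop-helix repressor induced by Notch, had the largest estimated stage difference of the 10 genes in these fits. In LP/alveolar cells it was at 97.6 (A10), 183 (P7) and 126 (D12) CPM in the adult FVB/NJ gland. It was at 0.418 (H) and 0.309 (G) at pregnancy day 12.5, at 0.411 (F4) and 0.215 (B4) at day 18.5, and at 0.849 (F11) and 1.54 (D6) in lactation. Adult libraries held 1427, 428 and 686 Hey1 UMIs in these cells, and the 4 pregnancy libraries held 16, 9, 11 and 4. The fall from adult to day 12.5 was -8.34 ± 0.49 on the log2 scale (edgeR adjusted p = 0.000118), and it was called in 16 of 16 alternatives (adjusted p up to 0.00306, and -8.19 without P7). Because the members were chosen with earlier results of these data known, this call is not independent support for the fall. As pooled counts, 2541 UMIs in the adult stood against 25 at day 12.5 and 15 at day 18.5, and the lower 95% counting bounds of these ratios were 207-fold and 208-fold. The make-up of the class differed too, since the name covers adult LP cells and the alveolar cells of pregnancy. Milk genes made up 0.215% to 3.92% of UMIs in the adult FVB/NJ LP/alveolar cells, 13.8% and 14.6% at day 12.5 and 34.7% and 35.7% at day 18.5. The basal marker list was at 348 to 1253 CPM in the adult and at 1078 and 1404 at day 12.5. Their part in the Hey1 difference was not tested.

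Of the 10 members, 2 were called in LP/alveolar cells between adult and day 12.5, Hey1 and Heyl, where 11.8% of 13906 genes tested were. No member was called between day 18.5 and day 12.5 (background 0.956%), where edgeR gave 0 members at an unadjusted p under 0.05 and DESeq2 called 0. Between lactation and day 18.5 only Hey1 was called (background 3.36%), as higher in lactation by 2.15 ± 0.48 (edgeR adjusted p = 0.0411). This rested on 32 UMIs against 15, a pooled ratio of 3.96 (2.08 to 7.87), and the call was lost in 9 of 16 alternatives, among them leaving out H, F4, G, B4 or D6 (log2 1.54 to 2.65, adjusted p 0.0862 to 0.395). In the lactation LP/alveolar sums the 7 endothelial markers stood at 45.8 (F11) and 58.9 (D6) CPM in total, against 4.52 (F4) and 3.38 (B4). Endothelial cells of the lactation libraries held 30.5 and 110 CPM of Hey1. Without cells carrying a blood, vessel or immune marker the difference was 2.04 (edgeR adjusted p = 0.0835).

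Shares of cells with a Hey1 UMI were compared at equal depth. Cells with 1500 or more UMIs outside the milk genes were thinned to 1500, and shallower ones were left out (6438 of 105940 gated cells, with 731 of 822 F11 basal cells the largest share). Of the LP/alveolar cells kept, 11.3% (10.1 to 12.6), 18.8% (15.9 to 22.0) and 17.4% (15.3 to 19.6) in A10, P7 and D12 held a Hey1 UMI. In H and G these shares were 0.0348% and 0.0912%, in F4 0.0696% and in B4 0 of 2354 cells, which allows a share of up to 0.127% by the limit of 3 counts (exact interval 0 to 0.157%), of cells with a UMI at this depth. Unthinned, the adult shares were 29.1%, 27.4% and 33.0% and the pregnancy shares 0.167% to 0.242%. In ML cells of the adult libraries, which hold few Hey1 UMIs, the thinned share was 0.158% to 1.02%. The pregnancy LP/alveolar shares were at or below that share of other libraries. Their CPM levels also lay under the 0.698 CPM that 0 UMIs in ML cells of pregnancy and lactation allow. That bound is set by the small ML total, and the ML shares come from other libraries. Neither settles whether LP/alveolar cells express Hey1 in pregnancy. Outside the milk genes the median depth of LP/alveolar cells was 2858 to 4915 UMIs in the adult FVB/NJ libraries and 4325 to 7905 in pregnancy, against 3271 to 8185 in adult FVB/NJ ML cells, ranges that overlap. Over all UMIs it was 2900 to 5054 and 6654 to 12614 in LP/alveolar cells, without overlap.

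In the adult the LP/alveolar level of Hey1 exceeded the basal level in each of 5 libraries, by 3.65 ± 0.48 (edgeR adjusted p = 4.56e-05), and exceeded the ML level by 4.78 ± 0.50 (adjusted p = 1.01e-05). The basal level in pregnancy and lactation was 1.03 (F11, 1 UMI) to 4.43 CPM (G, 137 UMIs), and LP/alveolar minus basal was -2.43 ± 0.43 (edgeR adjusted p = 0.000381). The thinned share of basal cells with a Hey1 UMI was 0.0932% to 1.10% at these stages, 1.10% being 1 of 91 F11 cells. It was about or below the adult ML share. That share comes from other libraries, so it does not settle whether basal cells express Hey1 here. The change of this contrast between adult and pregnancy was -7.30 ± 0.55 (adjusted p = 8.01e-06) and was called in 13 of 13 alternatives. ML cells of pregnancy and lactation held 0 Hey1 UMIs out of 4298815, which by the limit of 3 UMIs over all 6 ML sums allows up to 0.698 CPM. Basal cells of the same libraries held 247 Hey1 UMIs, 3.55 CPM when pooled, at least 5.09-fold above that limit. They had the highest Hey1 level of the 3 classes in each of the 6 libraries, in F11 on 1 UMI. What these few basal UMIs come from was not tested. Basal Hey1 itself was not called between adult and day 12.5, with 4.38, 5.17 and 14.7 CPM against 3.71 and 4.43 (log2 -0.91, 95% interval -1.98 to 0.15, edgeR adjusted p = 0.488).

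In single libraries Hey1 in LP/alveolar cells was 247 (236 to 259) CPM in the duct and 91.1 (83.2 to 99.5) in the TEB. It was 57.6 (48.5 to 68.0) at postnatal day 5, 152 (141 to 162) before puberty, 119 (113 to 126) in adult C57BL/6 and 7.47 (6.28 to 8.81) in adult SWISS. The latter libraries shared few or no barcodes with the duct and the TEB. Post-involution LP/alveolar cells held 29.9 (27.1 to 32.8), above all 6 pregnancy and lactation libraries and below the 3 adult FVB/NJ libraries. In the duct 29.5% (25.5 to 33.7) of thinned LP/alveolar cells held a UMI, in the TEB 10.5% (7.25 to 14.6), post-involution 3.9% (3.15 to 4.76) and in SWISS 0.805% (0.492 to 1.24). Adult SWISS and adult C57BL/6 were processed together, and with 1 library each, strain and library cannot be told apart. Over the E18.5 non-stromal cells Hey1 was at 30.8 (29.3 to 32.4).

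**Figure D4:**
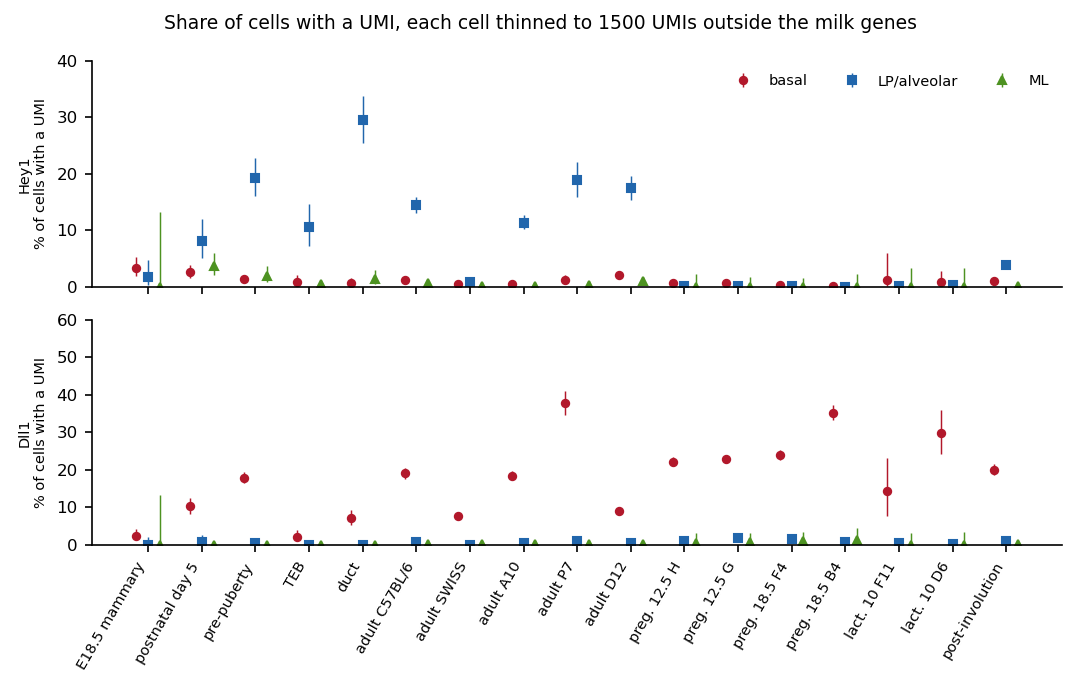
Percentage of basal, LP/alveolar and ML cells with at least 1 UMI of Hey1 (upper panel) and Dll1 (lower panel) in each mammary library among cells with 1500 or more UMIs outside the milk genes, each thinned to 1500, with exact 95% binomial bars. LP/alveolar Hey1 shares of 11.3% to 18.8% in adult FVB/NJ libraries stand against shares under 0.1% at pregnancy days 12.5 and 18.5, and Dll1 shares are high in basal cells only.

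Hes1, the repressor that oscillates in many progenitors and is shared by several pathways, was abundant in all classes. Adult LP/alveolar cells held 1118 (A10), 704 (P7), 596 (D12), 301 (C57BL/6) and 376 (SWISS) CPM, ML cells 945, 680, 373, 288 and 291, and basal cells 232, 302, 251, 128 and 81.9. LP/alveolar cells lay above basal cells by 1.72 ± 0.19 (edgeR adjusted p = 1.2e-05) and ML cells did by 1.36 ± 0.19 (adjusted p = 5.36e-05). The luminal classes were not called apart in the adult (0.36, 95% interval -0.01 to 0.73).

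In pregnancy Hes1 was lower in ML and basal cells. ML cells fell from 945, 680 and 373 CPM to 47.5 (H) and 54.2 (G) at day 12.5, a log2 difference of -3.78 ± 0.65 (edgeR adjusted p = 0.00511) that was not called without H or G (-3.70 and -3.90, adjusted p = 0.12 and 0.11). It was the only member called of the 5 tested in ML cells, where 7.07% of 8608 genes were. Basal cells fell from 232, 302 and 251 to 52.2 and 56.4, a difference of -2.15 ± 0.38 (edgeR adjusted p = 0.0285) that was lost without H, G, F4 or B4 (-2.06 to -2.22, adjusted p 0.0749 to 0.417), and Hes1 was the only one of 10 members called there (background 1.62%). In LP/alveolar cells Hes1 was at 235 and 289 after 1118, 704 and 596 (-1.55 ± 0.58), which was not called (edgeR adjusted p = 0.108).

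Later steps gave few calls. In basal cells 0 of 10 members were called between day 18.5 and day 12.5 (background 0%, edgeR, with 0 members and 1222 of 13428 genes at an unadjusted p under 0.05, and 0 members by DESeq2), and 1 of 10, Notch3, between lactation and day 18.5 (background 1.01%). In ML cells 0 of 5 were called at either later step (background 0% and 0%, edgeR, with 0 members at an unadjusted p under 0.05 and 0 by DESeq2 at both). The genes at an unadjusted p under 0.05 there were 570 and 504 of 8608. ML sums at these stages came from 128 to 261 cells, and the interval for Notch1 at the earlier step, for example, ran from -1.41 to 0.60.

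The class pattern of Hes1 therefore differed between stages. LP/alveolar minus ML was 1.81 ± 0.28 in pregnancy and lactation (edgeR adjusted p = 5.03e-05), and pregnancy minus adult in that contrast was 1.81 ± 0.35 (adjusted p = 0.00161, called in 13 of 13 alternatives). It was the only one of 10 members called in this test, against 23% of all 14170 genes. ML minus basal was smaller in pregnancy by 1.29 on the log2 scale (-1.29 ± 0.35, edgeR adjusted p = 0.0195). This Hes1 call was lost without A10, H or G (-0.90 to -1.20, adjusted p 0.0609 to 0.108) and without TMM (-1.03, adjusted p = 0.0723). With Notch3 this made 2 of 10 members called for ML minus basal, where 15.2% of genes were, and Hey1 and Notch1 made 2 of 10 for LP/alveolar minus basal, where 16% were. By count, then, the members were near or under the background in all 3 tests of the change in class difference.

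Immediate early genes, which rise within minutes of cell handling and include several transcription factors, were lower at day 12.5 than in every adult FVB/NJ library in both luminal classes but not in basal cells. Summed over 8 such genes chosen after values were seen, they stood at 6794 to 21039 CPM in adult FVB/NJ ML cells against 3085 (H) and 3588 (G) at day 12.5. In LP/alveolar cells they stood at 9542 to 25072 against 4090 and 4074, and in basal cells at 7006 to 31882 against 7532 and 7546. Their part in the Hes1 and Hey1 differences was not tested.

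Heyl, the Hey relative of smooth muscle and vessels, was rare in epithelium, with 365 UMIs over the 51 sums. In adult LP/alveolar cells it was at 2.46 (A10), 4.71 (P7), 1.84 (D12), 2.74 (C57BL/6) and 2.90 (SWISS) CPM, and ML cells held at most 0.357. LP/alveolar cells lay above ML cells by 3.48 ± 0.63 (edgeR adjusted p = 0.000681) and above basal cells by 2.41 ± 0.61 (adjusted p = 0.00591). The difference from basal cells was 3.13 without P7, and without the library block it was 1.87 and not called (edgeR adjusted p = 0.11). At day 12.5 it was at 0.34 (H, 13 UMIs) and 0.515 (G, 15 UMIs), a fall of 2.60 on the log2 scale (-2.60 ± 0.62, edgeR adjusted p = 0.0279) that was not called without H, F4, G or B4 (-2.30 to -2.90, adjusted p 0.0572 to 0.294). Basal cells of P7 were the exception in the adult, at 4.80 against 0.356 or less in the other FVB/NJ libraries, with the mural list at 15.9 CPM there and 8.20 and 10.6 in A10 and D12. Lactation basal cells held 4.11 (F11) and 11.3 (D6), which was not called (edgeR adjusted p = 0.233), and mural cells held up to 52.

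**Figure D5:**
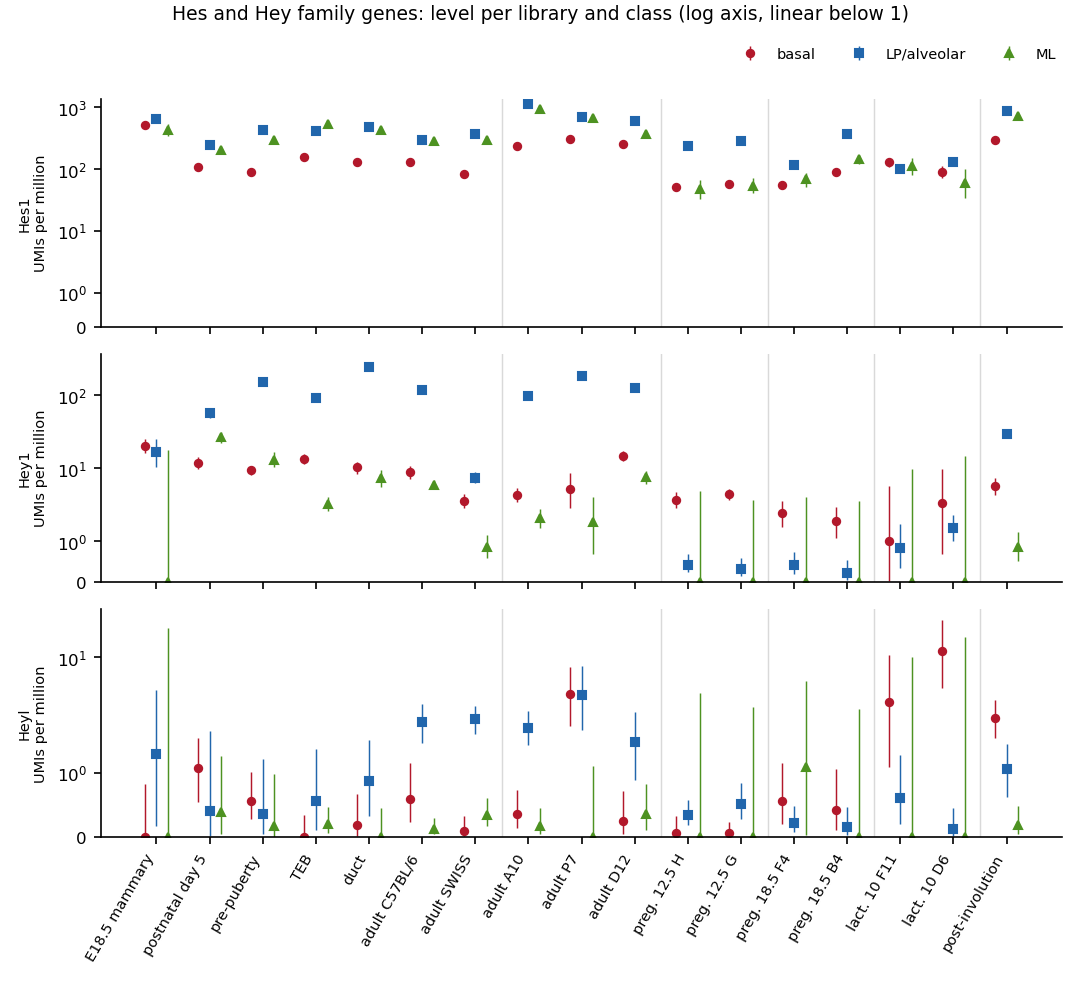
Level of Hes1, Hey1 and Heyl (CPM outside the milk genes, log axis that is linear below 1) in basal, LP/alveolar and ML cells of the 17 mammary libraries, with 95% Poisson bars. LP/alveolar Hey1 points of 97.6 to 183 in adult FVB/NJ libraries drop to 0.215 to 0.418 in pregnancy, and ML Hes1 points drop from 373 or more to 47.5 and 54.2 at day 12.5.

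The pathway around these genes was described with 60 further Notch genes in roles from ligand to target. In adult LP/alveolar minus basal cells 26 of the 53 tested were called (14 higher, 12 lower), in ML minus basal 39 (18 and 21), and in LP/alveolar minus ML 28 (14 and 14), which is 49.1%, 73.6% and 52.8% beside 48.3%, 61.9% and 45.4% of all genes. In pregnancy and lactation, 51 were tested and 33, 28 and 24 were called, or 64.7%, 54.9% and 47.1% beside 63.7%, 51.2% and 47.7%. The median log2 difference of these genes lay between -0.24 and 0.06 in the 6 contrasts.

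Adult basal cells held most of the non-canonical ligand Dlk2, at 29.5 CPM against 0.515 in LP/alveolar and 0.337 in ML cells (log2 -5.76 ± 0.47 and -5.69 ± 0.42, edgeR adjusted p = 8.91e-07 and 2.82e-07). Lfng, a fringe glycosyltransferase that alters which ligand a receptor prefers, was at 15.4 in basal, 8.41 in ML and 1.01 in LP/alveolar cells (LP/alveolar minus basal -3.73 ± 0.38, adjusted p = 4.85e-06). Dtx1 and Numbl, which act on receptor traffic, and Poglut1, another glycosyltransferase, were also lower in LP/alveolar than in basal cells (log2 -4.21, -2.14 and -1.87). Of the 4 tested targets and relatives outside the member list, 3 were called and higher in LP/alveolar than in basal cells (75%, beside 48.3% of all genes), and between LP/alveolar and ML cells 2 were higher and 1 was lower (beside 45.4%). Hey2 and Nrarp were higher in LP/alveolar than in basal cells (2.23 and 2.20) and than in ML cells (4.43 and 2.53), as Hey1 was. Hes6, a Hes relative, was higher in LP/alveolar than in basal cells (1.13) and lower than in ML cells (log2 -0.68 ± 0.26, edgeR adjusted p = 0.0493).

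The products of the 9 protease genes cut the receptor. In the adult 8 of them were higher in ML than in basal cells (61.9% of all genes were called there in either direction) and 5 were higher in ML than in LP/alveolar cells (45.4%). Adam10, the enzyme that makes the first cut in the bound receptor, was at 197 CPM in ML cells against 37.8 in basal and 37.3 in LP/alveolar cells (ML minus basal 2.35 ± 0.14, edgeR adjusted p = 8.15e-08). In pregnancy and lactation 7 of the 9 were higher in ML than in basal cells (background 51.2%), with Adam10 at 201 against 41.8, while 7 were also higher and 2 lower in LP/alveolar than in basal cells (63.7%). Maml2, a coactivator of the nuclear complex, and Tle4, a corepressor, were lower in ML than in basal adult cells (-2.79 and -2.08). Dtx4 was higher in ML cells (2.70).

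Across stages the wider list gave few calls. Of the 53 genes tested in LP/alveolar cells 5 were called between adult and day 12.5 (9.43%, under the 11.8% of all genes). Hey2 fell from 2.99 to 0.0605 CPM (-5.53 ± 0.79, edgeR adjusted p = 0.00439), Nrarp from 37.3 to 5.11 (-2.71 ± 0.37, adjusted p = 0.00387), Dtx3 from 40.9 to 6.26 (-2.50) and Tle2 from 9.16 to 2.64 (-1.63), while Dtx3l rose from 14.2 to 35.4 (1.38, called in 6 of 16 alternatives). By that test 2 of the 4 tested targets outside the member list fell with Hey1 and Heyl. In ML cells Neurl1a, a ubiquitin ligase that acts on ligands, rose from 0.642 to 12.8 (4.12 ± 0.60, edgeR adjusted p = 0.00189) and the corepressor gene Hdac1 fell from 92.2 to 22.6 (-2.02 ± 0.52, adjusted p = 0.0383, called in 6 of 16 alternatives). In basal cells 0 of 54 were called at day 12.5 by edgeR (5 at an unadjusted p under 0.05, 3 by DESeq2), and in lactation only the vessel ligand Dll4 was higher (6.64 ± 1.20, edgeR adjusted p = 0.0257, called in 7 of 13 alternatives), in the same sums whose endothelial list stood at 105 (F11) and 396 (D6) CPM against 6.01 (F4) and 5.07 (B4). None was called between day 18.5 and day 12.5 in any class by edgeR, with 2, 7 and 2 at an unadjusted p under 0.05 in basal, LP/alveolar and ML cells and 0, 2 and 0 by DESeq2. None was called in LP/alveolar or ML cells between lactation and day 18.5 by edgeR either, with 12 and 2 at an unadjusted p under 0.05 and 2 and 0 by DESeq2.

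Changes of a class difference were also tested over the wider list. Hey2 had a lower LP/alveolar minus basal difference in pregnancy than in the adult (-4.44 ± 0.92, edgeR adjusted p = 0.00542), as did Dtx3 (-1.74 ± 0.21, adjusted p = 7.44e-05) and Maml2 (-1.44). Mib1, a ubiquitin ligase that activates ligands, had a higher one (1.44 ± 0.31, edgeR adjusted p = 0.00531), and so did Lfng (1.95), whose call was made in 7 of 13 alternatives (adjusted p up to 0.0847). In all, 10 of 55 wider genes were called for LP/alveolar minus basal, 13 for ML minus basal and 7 for LP/alveolar minus ML, which is 18.2%, 23.6% and 12.7% of those tested, against 16%, 15.2% and 23% of all genes.

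Genes whose levels ran most like each member were found by Pearson's correlation of log2(level + 1), given as a description over points that share libraries and depth. Over the 10 FVB/NJ libraries Hey1 in LP/alveolar cells was most like Tm4sf1 (r = 0.99), Pag1 (0.988), Phykpl (0.985), Car8 (0.984) and Lingo1 (0.982), among 12459 genes. Over all 51 class sums, Jag2 was most like Snai2 (0.974), Hdgfl3 (0.962) and Cdh6 (0.958), and Dll1 was most like Colgalt2 (0.961), Nexn (0.950) and Popdc2 (0.939). Jag1 was most like Lrp1 (0.860), Dgkh (0.859) and Dlg4 (0.826). Notch3 was most like Cystm1 (0.875), Bik (0.864) and Unc13b (0.856), and Notch1 most like Ltbp1 (0.826), Plag1 (0.814) and Iqgap1 (0.80). For Notch2 the nearest were Kmt2d (0.803), Lrrc8a (0.80) and Spry2 (0.781), and for Hes1 Aqp5 (0.751), Fam110c (0.718) and Capg (0.717). The sparse genes Heyl and Notch4 had Lrrc32 (0.877), Tubb2a (0.741) and Pde1a (0.732), and Eid2b (0.666), Ccdc69 (0.602) and Zfp558 (0.591).

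The few non-epithelial cells left after the sort placed the members in other lineages. Mural cells of 7 libraries (22 to 86 cells each) held Notch3 at 206 to 503 CPM and Jag1 at 68.6 to 291, the former above every epithelial sum and the latter overlapping the basal range. Endothelial cells of 5 libraries (27 to 558 cells) held Notch1 at 104 to 247 and Dll1 at 9.16 to 104. Fibroblasts of 11 libraries held Notch2 at 41.8 to 145 in all but P7, where none of its 26 fibroblasts held a Notch2 UMI. These levels are descriptions of small groups of cells from a sort that was meant to leave them out.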

How the data were processed

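Droplet 3′ single-cell RNA libraries of sorted mammary epithelium (17) and skin (1) were analysed. The authors deposited raw UMI counts per gene and cell barcode, made with Cell Ranger on mm10 (GRCm38), which per the file headers was version 3.0.2 or 3.1.0. Normalization had not been applied. Barcodes were kept where genes, UMIs and mitochondrial share fell within the limits in the study's methods. Its upper limits were the only treatment of doublets. Each cell was then put in the class whose markers scored highest (score at least 0.3 of the reference, next class at most 0.75 of the best), with thresholds set after the data were seen. The members and lists were chosen with earlier results of these data known. UMIs were summed per library and class and tested with edgeR 4.0.16 (R 4.3.3, quasi-likelihood F test, TMM, filterByExpr, Benjamini-Hochberg over all genes tested). Stages were fitted per class over 9 FVB/NJ libraries, and class contrasts had the library as a block, with gate markers left out. P-values measure the spread between libraries of pooled mice. The procedure was tested on counts simulated with the same spread for all genes and with changes only in genes of higher count. That test does not cover genes with few UMIs or a library that stands apart. Total depth was 9920346 to 93234616 UMIs per library, and intervals of levels, shares and pooled ratios cover counting error only. All 10 members were named, with up to 8 called genes of the wider list per contrast by size of change, and the genes most alike by correlation (5 for Hey1, otherwise 3, among genes with 100 or more UMIs). The text gives values for only some of these wider genes. Alternatives were DESeq2 1.42.0, no TMM, no count filter, at least 1000 genes per cell, Seurat 5.3.0 clusters as classes, a stricter gate, no block, no cells with a vessel, blood or immune marker, each library left out, a stage block of printed replicate numbers (added after the data were seen), all UMIs as denominator, and shares at 1000 UMIs. In stage fits without TMM the library sizes also left out the 8 milk genes, which the main stage fits kept. That setting therefore changed both at once. Class fits left the milk genes out in either setting.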

Additional observations from a re-analysis of the deposited data

Results flagged for a closer look

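Class differences that changed between the adult and pregnant FVB/NJ gland, by edgeR's test of the interaction, were found for 4 members. The share of all genes called was 16% for LP/alveolar minus basal (2 of 10 members), 15.2% for ML minus basal (2 of 10) and 23% for LP/alveolar minus ML (1 of 10). LP/alveolar minus basal was lower in pregnancy for Notch1 (log2 -0.89, adjusted p = 0.0356, lost without H, F4, P7 or D12) and Hey1 (-7.30, adjusted p = 8.01e-06, called in 13 of 13 alternatives). ML minus basal was lower for Hes1 (-1.29, edgeR adjusted p = 0.0195, lost without A10, H or G and without TMM). It was higher for Notch3 (1.51, adjusted p = 0.015, lost without H, G, P7 or D12 and with clusters), with mural markers also higher in ML sums of pregnancy. LP/alveolar minus ML was higher for Hes1 (1.81, adjusted p = 0.00161, called in 13 of 13 alternatives).

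The E18.5 skin library, which no comparison used, held UMIs of all 10 members above the limit that a count of 0 allows (0.0595 CPM). In its 9025 cells Notch1 was at 22.6 CPM (89.7 in the E18.5 mammary library), Notch2 at 53.9 (16.4), Notch3 at 8.83 (17.5) and Notch4 at 1.15 (1.3). Jag1 was at 8.69 (19.8), Jag2 at 1.13 (6.85) and Dll1 at 4.50 (10.6). Hes1 was at 425 (527), Hey1 at 19.3 (29.3) and Heyl at 8.37 (1.35). With 1 library each, prepared together, these differences were not tested.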

How the results depend on the processing

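Over all 10 members and 18 contrasts, 2252 fits were made under alternatives. Of these 2031 kept their direction and side of the threshold, 57 lost a call, 42 gained one and 122 changed sign, in none of which the difference was called before or after. The labels carry no replicate numbers. The study prints numbers for the replicated stages, and correlations of same-numbered deviations were -0.18 to 0.16. With 2 libraries in a group the deviations mirror each other, so these correlations do not settle whether the libraries pair. A stage fit with the printed numbers as a replicate block was added after the data were seen. It called 0 members in basal cells at day 12.5 and 0 in LP/alveolar cells in lactation (1 each without it), with the other stage counts as before. In that fit D12, alone in its number, carried no weight. Without the replicate block, members called in the class tests (LP/alveolar minus basal, ML minus basal, LP/alveolar minus ML) were 7, 4 and 4 in the adult (9, 5 and 5 with it) and 6, 5 and 3 in pregnancy and lactation (7, 6 and 4). Sign changes of differences printed or plotted above were as follows. Jag2 for LP/alveolar minus ML in pregnancy and lactation (0.18) was -0.18 without TMM, -0.19 with clusters, -0.38 with the stricter gate and -0.18 to 2.41 with a library left out. The value of 2.41, without G, kept its sign and was called. In the adult (-0.01) Jag2 was 0.015 with the stricter gate, 0.016 without the block and -0.27 to 0.22 with a library left out. Dll1 in basal cells at day 12.5 (0.01) was -0.029 by DESeq2, -0.18 without TMM, -0.13 with clusters, -0.030 with the stricter gate, -0.0218 without vessel-marker cells and -0.39 to 0.81 with a library left out, and for LP/alveolar minus ML in pregnancy and lactation it was -0.077 with clusters (0.59). Notch4 in the adult was -0.061 without TMM, -0.041 at 1000 genes, -0.079 without the block and -0.32 to 0.29 with a library left out for LP/alveolar minus basal (0.03), 0.088 with clusters and -0.20 to 0.056 for ML minus basal (-0.07), and -0.12 to 0.24 for LP/alveolar minus ML (0.10). Notch3 for adult LP/alveolar minus ML (0.06) was -0.00796 without TMM and -0.096 to 0.14 with a library left out. In pregnancy and lactation Notch2 for LP/alveolar minus basal (-0.15) was 0.037 at 1000 genes, and Hes1 for ML minus basal (-0.12) was 0.0087 at 1000 genes and 0.15 with clusters. Hey1 for the stage change of LP/alveolar minus ML is no measurement, since ML cells of pregnancy held 0 Hey1 UMIs, and its fitted value, set by the prior count, was -0.01, 0.0054 without a count filter and -0.71 to 0.57 with a library left out. Counts of members called moved as follows. In basal cells at day 12.5 (1 called), DESeq2 and no count filter gave 3 each, and leaving out a library gave 0 to 2. In basal cells in lactation (1), DESeq2 and no filter gave 2 each, 1000 genes per cell, clusters and no vessel-marker cells gave 0, and leaving out a library 0 to 2. In LP/alveolar cells at day 12.5 (2) leaving out a library gave 1 to 3, and in ML cells (1) 0 to 1. In LP/alveolar cells in lactation (1), no filter gave 2, no TMM, clusters, the stricter gate and no vessel-marker cells gave 0, and leaving out a library 0 to 1. For the stage change of LP/alveolar minus basal (2), 1000 genes and clusters gave 1 and leaving out a library 1 to 2. For ML minus basal (2), no TMM and clusters gave 1 and leaving out a library 0 to 2. For LP/alveolar minus ML (1), DESeq2 and no TMM gave 4, no filter, 1000 genes and the stricter gate gave 2, and leaving out a library 1 to 2. A library left alone in its group was assumed to vary like the others. The cause of these moves was not tested. Over all genes, DESeq2 called 709, 197 and 394 in basal cells (edgeR 217, 0 and 136), 2543, 821 and 996 in LP/alveolar cells (1634, 133 and 467) and, at the later ML steps, 53 and 26 (0 and 0). Without TMM the median of all genes moved by up to -0.44 on the log2 scale, and the share of called genes that were higher went from 74.1% to 60.3% (LP/alveolar, lactation), 52.5% to 36.4% and 59.3% to 31.9% (LP/alveolar minus basal and minus ML, pregnancy and lactation), and 55.4% to 41.4%, 39.9% to 70.6% and 67.1% to 29.0% (stage changes of the 3 contrasts). With all UMIs as denominator 96 of 120 levels moved by less than 1 SD, and at 1000 UMIs per cell 280 of 510 shares stayed within their interval. A lower depth lowers a share by itself, so the count of shares does not measure how firm they are.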
